A study of Mus musculus with 12 samples.

Results

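The genotype by cGAMP interaction is the difference between the responses of 2 kinds of mouse B lymphocyte to the cyclic dinucleotide 3'3'-cGAMP. It takes the change under cGAMP in Tmem173-/- cells and subtracts the change in wild type cells, gene by gene. All 12 of the 12 libraries of the series enter it. There are 3 libraries in each of 4 groups, since both genotypes, wild type and Tmem173-/-, have a control group and a cGAMP group. A library is called by its group and number, such as wild type control 3. The cells were sorted as primary B lymphocytes, from 3 mice per genotype, plated, and treated with 3'3'-cGAMP for 12 h in the 2 treated groups. Both control groups lack cGAMP, and the labels give neither a vehicle, a dose, the strain, the age nor the sex of the mice. Polyadenylated RNA was sequenced. With 3 mice of a genotype behind 6 libraries, some libraries of a genotype share a mouse or a pool of mice, and p-values measure the spread between libraries, part of which may be technical.

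Tmem173 encodes STING, an adaptor of the endoplasmic reticulum that binds cyclic dinucleotides. Bacteria make the 3'3' form of cGAMP, and the enzyme cGAS makes a related form when DNA enters the cytosol of a mammalian cell. Bound STING recruits the kinase TBK1, which activates the transcription factor IRF3, and it also activates NF-kB. Type I interferon made in this way acts back on the cells through its receptor and a transcription factor complex called ISGF3, which switches on interferon-stimulated genes. In B cells such signals are known to alter costimulatory molecules, antigen presentation and survival.

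Total counts ran from 26490593 to 31417833 per library, and 18556 to 19727 genes had a count. Levels are given as CPM, a gene's share of its library's counts after scaling by the trimmed mean of M-values (TMM). Summed marker levels, here and below, are CPM by library totals alone, without TMM. The defining B cell markers, among them Cd79a, were abundant in every library, with a summed level of 6 markers from 3313 to 5701 CPM. Both wild type libraries numbered 1 held more T cell, NK cell and neutrophil transcripts than the rest. The summed level of 10 T cell markers was 14.5 CPM in the first wild type control and 32.5 CPM in the first wild type cGAMP library, against at most 5.53 CPM in any Tmem173-/- library. The third wild type control library held the highest levels of many interferon-stimulated genes among the controls, as its values for single genes show.

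Tmem173 itself is the first member to be read, because it checks the labels. Wild type controls held 91.2, 102 and 92.7 CPM, and Tmem173-/- controls 80.2, 94.7 and 103 CPM. These levels overlap, so a count over the whole gene does not show the labelled loss, and it cannot tell whether the transcript still encodes a working protein. The groups are therefore called Tmem173-/- as labelled. Under cGAMP the transcript was at 44.7, 49.2 and 48.0 CPM in wild type cells and at 82.9, 101 and 95.9 CPM in Tmem173-/- cells. The 3 wild type cGAMP libraries lay below the other 9. The interaction was 1.02 on the log2 scale (SE 0.14, edgeR quasi-likelihood adjusted p = 6.43e-05, n = 3 per group).

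Among called genes, 4546 of 4569 had a larger response in wild type than in Tmem173-/- cells. Both responses enter the interaction, so this count and the directions given next describe the calls and are no separate result. Of 14473 genes tested, 4569 (31.6%) passed an adjusted p of 0.05 in edgeR's quasi-likelihood test of the interaction term. A value below 0 was found for 2037 genes (14.1%), and in each of these 2037 the wild type response was upward. A value above 0 was found for 2532 genes (17.5%), and in each of these the wild type response was downward. An interaction of at least 2-fold was called for 1554 genes (10.7%), of which 691 (4.77%) were below 0 and 863 (5.96%) above. The median called gene below 0 had an interaction of -0.74, with a response of 0.72 in wild type and -0.02 in Tmem173-/- cells. Above 0 the median interaction was 0.78, with responses of -0.77 and 0.01.

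The balance of the signs changed with the size of the interaction. Genes below 0 made up 44.6% of all calls, 55.1% of the 405 calls of at least 4-fold, 64.8% of the 128 of at least 8-fold and 77.6% of the 49 of at least 16-fold. The largest called values were thus mostly rises of wild type cells. However, the low-count filter works by group and keeps genes that are nearly silent outside a single group. Such genes can reach larger values than genes that fall from a moderate level, so the split by size is only a description. When the deposited FPKM values were tested with limma-trend on log2(FPKM + 1) in place of the counts, the split over all calls turned, with 2494 genes below 0 and 2036 above (55.1% below), and only 946 genes reached 2-fold.

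The simple contrasts that make up the interaction differed widely. In wild type cells, 6921 genes (47.8%) passed the test of the response to cGAMP. In Tmem173-/- cells, 0 genes passed it in edgeR, in limma-voom and in DESeq2. There, 203 genes had an unadjusted p under 0.05 in edgeR (1.40% of the tested genes) and 216 in DESeq2. With no response at all, a share of 0.05 would be expected, so the test of this contrast may be strict. Between the 2 control groups, 0 genes passed in edgeR and limma-voom and 4 in DESeq2, with 921 at an unadjusted p under 0.05 in edgeR (6.36%). Between the 2 cGAMP groups, 6994 genes (48.3%) passed. A response that misses the threshold is not shown to be absent. Of the 1554 genes with an interaction of at least 2-fold, 1200 (77.2%) had a limma-voom 95% interval of the Tmem173-/- response that stayed within 2-fold in either direction. The remaining genes had wider intervals or intervals that reached past 2-fold.

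Wild type and Tmem173-/- responses come from different libraries, so they can be set against each other across genes. Over the 14473 genes, Pearson's r was 0.0834 and Spearman's rho 0.0605, given as a description because genes are not independent. The responses had a standard deviation across genes of 0.88 in wild type and 0.31 in Tmem173-/- cells. Among 9491 genes with a mean of at least 5 CPM, where counting noise is lower, the standard deviations were 0.66 and 0.11.

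**Figure D1:**
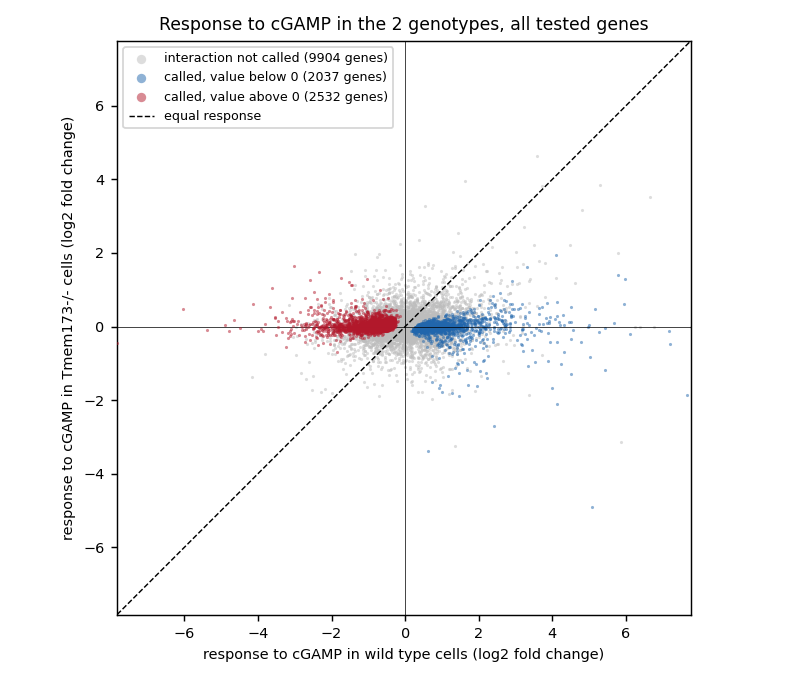
Response to cGAMP of each of the 14473 tested genes, in wild type cells on the horizontal axis and in Tmem173-/- cells on the vertical axis, both as log2 fold changes, with 1 point per gene coloured by its interaction call. Called genes (2037 in blue, 2532 in red) lie along the horizontal axis, away from the dashed line of equal response.

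The interaction weighs all 4 groups equally, so a call does not say which group is the unusual one. For each called gene, the group whose mean log2 level lay farthest from the mean of the other 3 was recorded. It was wild type cGAMP for 4489 of 4569 called genes (98.2%), against 10498 of all 14473 tested genes (72.5%). In 4191 of these 4489 genes the 3 wild type cGAMP libraries lay all above or all below the other 9 libraries. Among the 10498 tested genes with the same group farthest apart, 6293 (59.9%) did so. Calls and separation rest on the same values, so these counts are a description. Over all tested genes, called or not, 6329 (43.7%) showed such a separation of the wild type cGAMP group, against 122 (0.843%) for wild type control, 132 (0.912%) for Tmem173-/- control and 78 (0.539%) for Tmem173-/- cGAMP. The other 80 called genes had wild type control (57), Tmem173-/- cGAMP (16) or Tmem173-/- control (7) as the group that stood apart.

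**Figure D2:**
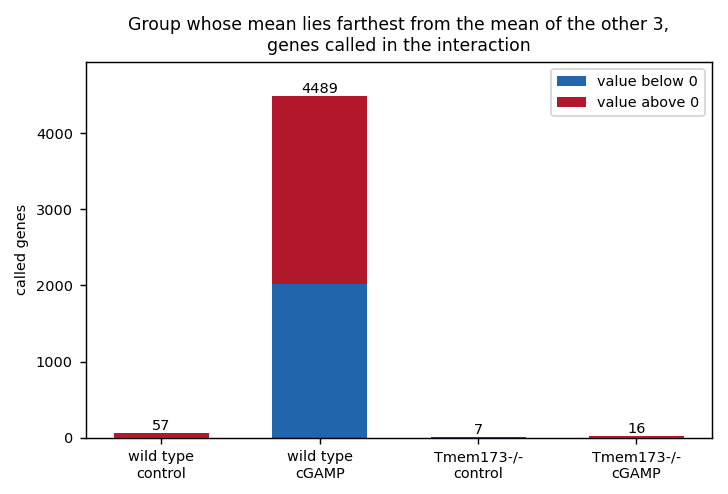
Number of called genes for which each group's mean log2 level lies farthest from the mean of the other 3 groups, with interactions below 0 in blue and above 0 in red. The wild type cGAMP bar holds 4489 of the 4569 genes and the other 3 bars hold 57, 7 and 16.

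The strongest interactions are ranked here and below among called genes with at least 5 CPM in a group and no predicted-gene or clone name. They also stayed called in all fits without 1 library. Under these limits, the lowest values belonged to a chemokine, a regulator of tolerance and an immunometabolic enzyme. Cxcl10, which encodes an interferon-induced chemokine that draws activated T cells, had 0.0356, 0.352 and 1.38 CPM in the wild type controls, against 86.7, 92.7 and 81.5 CPM in wild type cGAMP libraries. In Tmem173-/- cells it was at 0.36, 0.134 and 0.438 CPM without cGAMP and at 0.447, 0.166 and 0.0679 CPM with it. Only the wild type cGAMP group was high, and the interaction was -7.67 (SE 1.36, adjusted p = 0.00196). Aire, the regulator that lets thymic cells express tissue antigens, reached 15.1, 22.2 and 15.9 CPM in wild type cGAMP libraries and at most 0.317 CPM in any other library (interaction -7.31, SE 1.28). Acod1, whose enzyme makes itaconate, was at 10.2, 4.24 and 4.49 CPM there and at most 0.356 CPM elsewhere (-6.60, SE 1.04). These genes are nearly silent outside the wild type cGAMP group, so the size of their fitted values depends on few counts, and under the alternatives tried Acod1 ranged from -8.48 to -1.72 and Aire from -9.77 to -3.44.

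The promoters of the extreme genes are shown because the members were called by level alone, and the sequence is a feature that the call did not use. Each window is 300 bases from RefSeq (build GRCm38.p6), 250 before and 50 from the start of the gene on, written 5′ to 3′ on the gene's strand. Capitals mark a match on either strand to the core of the interferon-stimulated response element bound by ISGF3 (GAAA, any 2 bases, GAAA), to an NF-kB site (GGGA, any base, TTTCC) or to the core of the gamma-activated sequence bound by STAT dimers (TTCNNNGAA), where N is any base. In the 3 genes with the lowest interaction under the limits above, the windows read as follows.
Cxcl10, chr5:92348840-92349139, minus strand: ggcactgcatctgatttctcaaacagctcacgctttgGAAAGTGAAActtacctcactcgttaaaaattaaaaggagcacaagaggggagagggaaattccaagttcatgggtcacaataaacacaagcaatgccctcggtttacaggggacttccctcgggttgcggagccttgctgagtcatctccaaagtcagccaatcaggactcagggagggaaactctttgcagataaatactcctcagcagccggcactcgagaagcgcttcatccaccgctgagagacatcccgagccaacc
Aire, chr10:78043561-78043860, minus strand: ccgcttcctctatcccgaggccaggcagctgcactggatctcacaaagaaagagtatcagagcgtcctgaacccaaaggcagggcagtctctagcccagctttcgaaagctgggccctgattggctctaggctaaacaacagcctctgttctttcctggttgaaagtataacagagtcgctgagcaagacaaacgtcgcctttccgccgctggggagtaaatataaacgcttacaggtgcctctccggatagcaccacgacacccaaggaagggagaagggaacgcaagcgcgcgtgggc
Acod1, chr14:103046762-103047061, plus strand: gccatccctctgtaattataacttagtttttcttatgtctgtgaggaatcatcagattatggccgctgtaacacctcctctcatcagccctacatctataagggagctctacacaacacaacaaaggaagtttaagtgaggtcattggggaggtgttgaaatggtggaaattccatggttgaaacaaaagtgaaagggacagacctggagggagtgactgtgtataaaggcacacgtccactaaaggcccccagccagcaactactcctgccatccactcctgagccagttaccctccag
In the 3 genes with the highest interaction under the same limits that have an entry in the RefSeq table, they read as follows. Rnf150 has none.
Crisp3, chr17:40242239-40242538, minus strand: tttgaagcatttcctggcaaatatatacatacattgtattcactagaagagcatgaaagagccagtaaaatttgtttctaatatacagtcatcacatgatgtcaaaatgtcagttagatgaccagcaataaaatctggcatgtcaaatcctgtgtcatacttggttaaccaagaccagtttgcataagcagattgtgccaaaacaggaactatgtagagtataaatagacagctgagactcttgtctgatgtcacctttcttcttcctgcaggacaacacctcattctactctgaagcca
Ccr1, chr9:123968643-123968942, minus strand: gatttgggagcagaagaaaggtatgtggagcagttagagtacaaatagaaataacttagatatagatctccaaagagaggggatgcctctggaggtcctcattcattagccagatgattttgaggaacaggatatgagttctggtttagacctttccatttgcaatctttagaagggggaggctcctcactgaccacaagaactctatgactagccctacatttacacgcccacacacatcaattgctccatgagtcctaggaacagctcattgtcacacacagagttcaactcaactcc
Nfam1, chr15:83033348-83033647, minus strand: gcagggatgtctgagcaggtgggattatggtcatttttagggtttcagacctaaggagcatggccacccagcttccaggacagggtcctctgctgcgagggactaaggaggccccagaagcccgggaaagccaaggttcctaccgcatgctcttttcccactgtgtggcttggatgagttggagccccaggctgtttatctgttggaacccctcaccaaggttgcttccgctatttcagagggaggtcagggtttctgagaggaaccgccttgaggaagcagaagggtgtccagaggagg
The Cxcl10 window held 1 match, GAAAGTGAAA, and the other 5 windows held none. Over all 32851 windows of the table, 3.44% held the first motif, 0.411% the NF-kB motif and 8.30% the last one. A match is a description and not a binding site, and no match says only that these letters are absent from the window. A window was found for 9800 of the 14473 tested genes (67.7%), under the 80% needed to compare called with other genes, so no such comparison was made.

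Under the same limits, the next 9 genes below 0 included several antiviral genes. Called genes at lower levels, such as Cd70 (-5.86), are not in this ranking. Ifih1, which encodes the RNA sensor MDA5, was the most precisely measured of them, with 10.8, 12.3 and 19.6 CPM in wild type controls, 451, 460 and 462 CPM in wild type cGAMP libraries and 8.13 to 12.4 CPM in the 6 Tmem173-/- libraries (-4.96, SE 0.27, adjusted p = 6.04e-08). Ifit1, whose protein binds foreign RNA caps, was at 349, 398 and 380 CPM in wild type cGAMP libraries and at 2.83 to 6.10 CPM in Tmem173-/- libraries. Its wild type controls were at 3.81, 7.07 and 25.3 CPM, so the third was well above the others, and the SE of the interaction of -4.98 was 0.95. Rsad2, which encodes viperin, showed the same spread in wild type controls (3.28, 5.38 and 15.6 CPM) and an interaction of -4.39 (SE 0.82). Oasl1, an oligoadenylate synthetase-like gene, had a value of -4.33 (SE 0.52), and Ifi207, of the family of interferon-inducible DNA sensors, -5.47 (SE 0.94). The other members were not classical antiviral genes. They were the kinase gene Pak6 (-5.34, SE 0.77), the zinc finger factor Plagl1 (-5.19, SE 0.59), the germ cell gene Tex15 (-4.70, SE 0.90) and Zbtb32, a repressor known in activated lymphocytes (-4.26, SE 0.38). Zbtb32 was at 295, 189 and 227 CPM in wild type cGAMP libraries and at 7.22 to 15.1 CPM in the other 9.

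Under the same limits on level, name and fits without 1 library, the strongest interactions above 0 were losses of wild type cells. Rnf150, a RING finger gene, had 14.2, 14.5 and 10.8 CPM in wild type controls, 0.328, 0.482 and 0.499 CPM in wild type cGAMP libraries and 15.5 to 17.9 CPM in Tmem173-/- libraries (4.94, SE 0.24, adjusted p = 2.27e-09). Crisp3, which encodes a secreted cysteine-rich protein, was at 1.71, 6.68 and 5.13 CPM in wild type cGAMP libraries and at 67.4 to 163 CPM in the other 9 (4.83, SE 0.61). Ccr1, a chemokine receptor gene, had 10.7, 11.7 and 14.0 CPM in wild type controls, 0.801, 0.689 and 0.926 CPM with cGAMP and 12.8 to 17.5 CPM in Tmem173-/- cells (3.84, SE 0.25). In each of these 3 genes the wild type cGAMP group lay below every other library.

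Further members of this group act in adhesion, innate recognition and cell death. Nfam1, a receptor with an activation motif known in B cells, had an interaction of 3.24 (SE 0.27), and Pglyrp1, which binds peptidoglycan, of 3.02 (SE 0.29). Anxa1, which encodes the anti-inflammatory protein annexin A1, was at 3.71, 2.13 and 1.46 CPM in wild type cGAMP libraries and at 10.8 to 19.7 CPM elsewhere (2.87, SE 0.35). Bmf, a BH3-only gene that promotes apoptosis, was at 14.7, 22.3 and 17.5 CPM there and at 122 to 149 CPM elsewhere (2.71, SE 0.17, adjusted p = 3.66e-08). Sema5a, a semaphorin gene, had a value of 2.86 (SE 0.34), and its levels in Tmem173-/- libraries (9.38 to 12.1 CPM) lay above those of wild type controls (5.97 to 6.84 CPM). Trim36 (2.85, SE 0.33), Nid1 for the basement membrane protein nidogen (2.78, SE 0.20) and Hepacam2 (2.73, SE 0.31) completed the set with Adgre1, which encodes the macrophage antigen F4/80 (2.80, SE 0.25). Adgre1 was at 23.1 to 53.9 CPM in 9 libraries and at 3.70 to 5.27 CPM in wild type cGAMP libraries. All 24 genes at both ends kept an adjusted p under 0.05 in each of the 12 fits that left out 1 library, which was part of the rule that chose them.

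**Figure D3:**
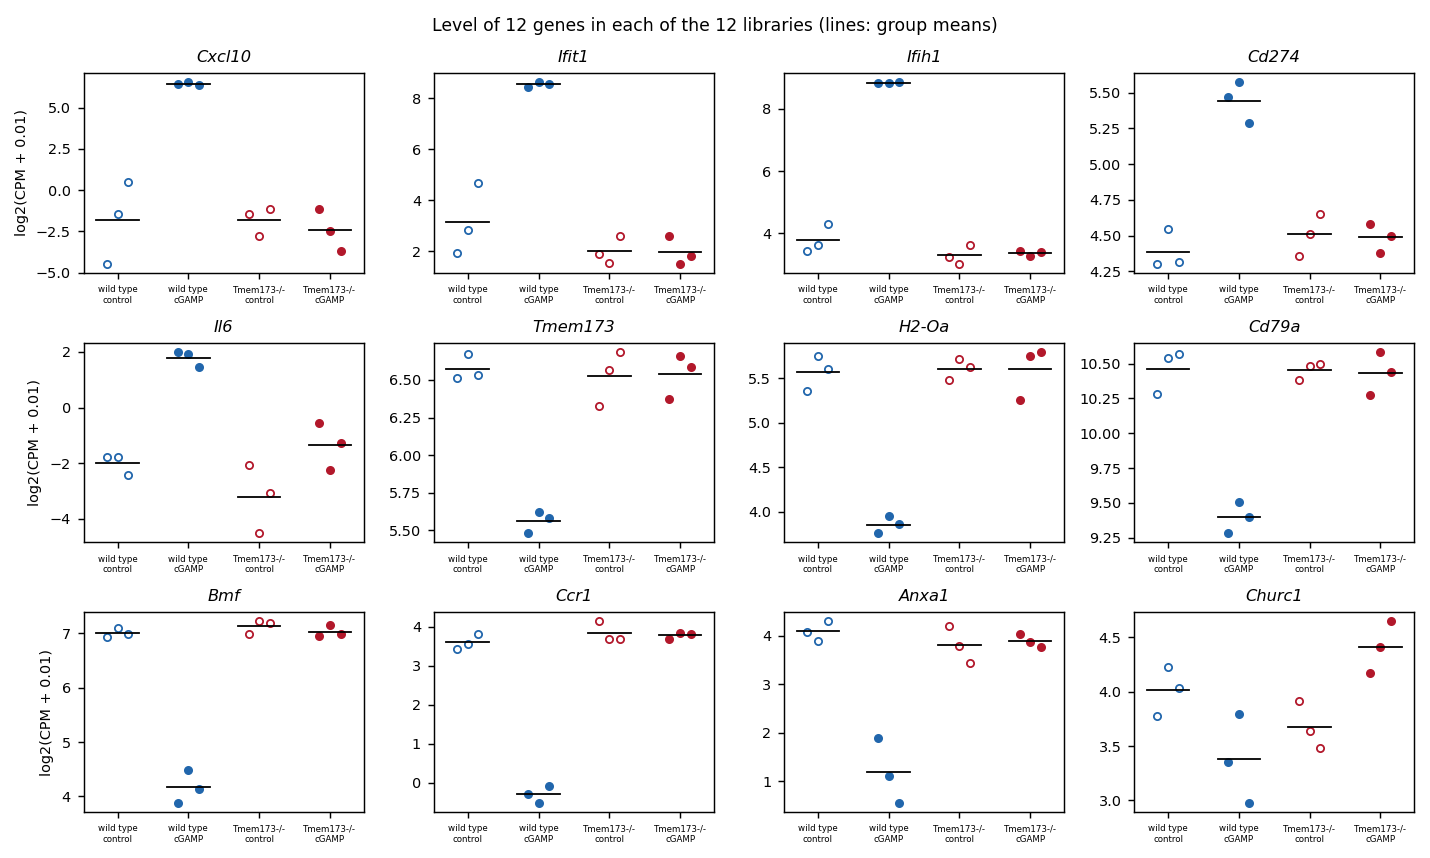
Level of 12 genes in each of the 12 libraries as log2(CPM + 0.01), with open circles for control and filled circles for cGAMP libraries, wild type in blue and Tmem173-/- in red, and group means as lines. In the top row and Il6 the wild type cGAMP group is the high one, in most of the rest it is the low one, and for Churc1 the Tmem173-/- cGAMP libraries (18.02 to 25.1 CPM) are higher than 8 of the other 9 libraries.

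The gene lists below were read by the number of members called in each direction, against 14.1% of all tested genes below 0 and 17.5% above. In the list of cytosolic DNA sensing around STING, 8 of 21 tested members were below 0 and 3 above. Irf7, the factor that amplifies interferon genes, was at 629, 760 and 609 CPM in wild type cGAMP libraries and at 9.42 to 19.99 CPM in Tmem173-/- libraries, with wild type controls at 15.2, 35.2 and 89.3 CPM (-3.60, SE 0.80). Zbp1, a sensor of Z-form nucleic acids, had a value of -2.54 (SE 0.33). Above 0 stood Tmem173 and 2 genes linked to the handling of cyclic dinucleotides, Enpp1 (1.25, SE 0.16) and Lrrc8c (1.04, SE 0.16). The Enpp1 enzyme degrades the form of cGAMP made by cGAS, and Lrrc8c is a subunit of volume-regulated channels that carry cyclic dinucleotides. Whether either acts on the bacterial form given here was not tested. Enpp1 had 25.01, 29.9 and 26.1 CPM in wild type controls, 9.32, 9.47 and 12.2 CPM with cGAMP and 25.1 to 30.4 CPM in Tmem173-/- cells. Lrrc8c fell below all other libraries in the same way, at 23.1, 16.8 and 23.9 CPM against 43.1 to 53.4 CPM.

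The interferon ligands were made at low transcript levels and only in wild type cGAMP libraries above a trace. Ifna4 was at 4.44, 6.78 and 5.66 CPM there, at most 0.0712 CPM in wild type controls, and had 0 counts in the 6 Tmem173-/- libraries. Ifna1 was at 3.89, 8.44 and 6.66 CPM and Ifna5 at 1.46, 1.96 and 0.641 CPM in the same group, and neither passed 0.133 CPM elsewhere. All 3 tested ligands lay higher in the 3 wild type cGAMP libraries than in the other 9. They passed the filter on low counts only through that group, so this order was fixed in advance and lends no support. In edgeR's test of the interaction 0 of 3 passed, and 0 had an unadjusted p under 0.05. The term has no finite estimate where groups hold no counts. DESeq2 called 2 of the 3 and limma-voom all 3. The near-identical sequences of the interferon alpha genes make the split of reads between them uncertain. The other 12 listed ligands did not reach the filter on low counts.

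Of 15 genes of interferon receptors and the ISGF3 machinery, 6 were below 0 and 6 above, with inhibitors on both sides. Below 0 lay the feedback inhibitors Usp18 (-3.03, SE 0.71) and Socs1 (-1.58, SE 0.28) and the transcription factor Stat2 (-1.30, SE 0.20). Stat2 was at 281, 296 and 252 CPM in wild type cGAMP libraries and at 88.2 to 136 CPM in the other 9. Above 0 lay the phosphatase Ptpn6 (0.73, SE 0.13), the receptor chain Ifngr1 (0.57, SE 0.13) and the STAT inhibitor Pias1 (0.55, SE 0.11). Ifnar2, a chain of the type I interferon receptor, and Socs3 did not pass, with values of 0.10 (SE 0.11) and -0.43 (SE 0.40), and neither did the kinase gene Tyk2, at 79.6 to 106 CPM in all 12 libraries.

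Among the lists with called members, interferon-stimulated effector genes had the lowest median. Of 52 members, all tested, 43 passed below 0 and 0 above (1 without Tmem173-/- cGAMP 3). The median was -2.06 against 0.02 over all genes. In 50 members the wild type cGAMP libraries did not overlap the other 9, against 43.7% of all tested genes. The largest were Ifit1, Ifih1 and Rsad2, given above. The median response of the list was 2.21 in wild type and 0.11 in Tmem173-/- cells. The count of members below 0 stayed between 37 and 48 under all alternatives tried. Among the 9 members that did not pass were 2 with a large wild type response. Ifit3 was at 292, 393 and 303 CPM in wild type cGAMP libraries, 5.92 to 14.1 CPM in Tmem173-/- libraries, and 8.16, 21.8 and 83.8 CPM in wild type controls (-2.82, SE 1.08, adjusted p = 0.0823). Ifit3b behaved alike, with wild type controls at 1.53, 4.40 and 20.9 CPM (-2.72, SE 1.21, adjusted p = 0.128). In both, wild type control 3 lay far above the other 2, and without that library the values were -4.15 (adjusted p = 0.00401) and -4.30 (adjusted p = 0.000939). Ifi204, a DNA sensor gene of the first list, went the same way, with 26.7, 17.8 and 19.2 CPM in wild type cGAMP libraries and at most 0.707 CPM elsewhere, with a value of -3.79 (SE 1.76, adjusted p = 0.117) and of -4.59 (adjusted p = 0.0425) without the third wild type control. Without it, 47 members of the effector list passed below 0.

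Cytokine and chemokine genes were mostly below 0 as well, with 11 of 21 tested members below and 2 above and a median of -1.29. After Cxcl10 came Il10, the gene of the regulatory cytokine interleukin 10, at 3.89, 2.34 and 2.88 CPM in wild type cGAMP libraries and at most 0.563 CPM elsewhere (-4.49, SE 0.93). Ccl5, a chemokine gene, was at 145, 105 and 106 CPM there and at 4.59 to 9.48 CPM elsewhere (-4.08, SE 0.41). Above 0 lay Ltb for lymphotoxin beta (0.82, SE 0.25, adjusted p = 0.0233) and Tgfb1 (0.52, SE 0.16, adjusted p = 0.0214), both close to the threshold. Ltb lost its call without wild type control 2 or 3, or wild type cGAMP 1, or Tmem173-/- control 1 or Tmem173-/- cGAMP 2, with adjusted p-values from 0.0545 to 0.0643. Tgfb1 lost it without Tmem173-/- control 2 (adjusted p = 0.0575). Il6 was at 4.004, 3.82 and 2.74 CPM in wild type cGAMP libraries and did not pass (-2.09, SE 0.81, adjusted p = 0.0591). Its Tmem173-/- libraries were at 0.0336 to 0.229 CPM without cGAMP and at 0.20 to 0.67 CPM with it, a response of 1.72 that did not pass, and it was named after these values were seen. It passed without Tmem173-/- control 2 (adjusted p = 0.0247) or Tmem173-/- cGAMP 1 (adjusted p = 0.0265).

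In the NF-kB list, 12 of 28 members were below 0 and 4 above. The stress gene Gadd45b was at 143, 131 and 127 CPM in wild type cGAMP libraries and 28.9 to 47.2 CPM elsewhere (-1.81, SE 0.21), and the adhesion gene Icam1 at 118, 123 and 120 CPM against 54.8 to 67.3 CPM (-1.17, SE 0.11, adjusted p = 2.06e-06). Ier3 had a value of -2.70 at low levels, from 0.034 to 2.69 CPM, and an adjusted p of 0.0444. It kept its call only without wild type control 1, wild type cGAMP 2 or Tmem173-/- cGAMP 2, and the other 9 fits without 1 library gave adjusted p-values from 0.0548 to 0.101. The members above 0 included the inhibitor Tnip1 (0.49, SE 0.12), Cd83 (0.48, SE 0.14) and Bcl2a1b (0.70, SE 0.23). The members above 0 numbered 2 with library totals in place of TMM, 1 without wild type cGAMP 1 or Tmem173-/- cGAMP 3, and 2 without wild type control 2 or 3, or wild type cGAMP 3, or Tmem173-/- control 3 or Tmem173-/- cGAMP 2. Bcl2a1b lost its call in each of these 7 fits (adjusted p from 0.0634 to 0.0828) and Cd83 in the first 2 (0.0565 and 0.0528). Bcl2a1b has near-identical paralogs among which reads may be divided.

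Costimulatory, activation and checkpoint genes had 12 of 26 tested members below 0 and 6 above. Cd86, the ligand that provides costimulation to T cells, was at 456, 582 and 506 CPM in wild type cGAMP libraries, 76.8, 82.9 and 104 CPM in the wild type controls and 63.3 to 84.0 CPM in Tmem173-/- libraries (-2.34, SE 0.16, adjusted p = 9.79e-08), and was named after its values were seen. Lag3, an inhibitory receptor gene, was at 110, 69.5 and 83.5 CPM against 7.85 to 11.4 CPM (-3.29, SE 0.26). Tigit (-4.55, SE 0.87) and Cd70 (-5.86, SE 1.22) were below 0 at low levels, at 2.38 to 4.73 CPM and 0.712 to 1.76 CPM in wild type cGAMP libraries. Cd274, which encodes the checkpoint ligand PD-L1, had a value of -1.08 (SE 0.16) and was also named after its values were seen. Above 0 lay the early response factor Egr2, at 45.0, 31.1 and 43.9 CPM in wild type cGAMP libraries and 119 to 154 CPM in the other 9 (1.68, SE 0.16), Havcr1 (1.59, SE 0.27) and Slamf1 (1.30, SE 0.27).

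Called members of the class I and class II presentation lists had opposite signs. Whether presentation itself changed was not tested. In the class I list, 10 of 23 members were below 0 and 0 above (1 without Tmem173-/- control 1), led by H2-Q4 (-1.66, SE 0.15), Nlrc5, the class I transactivator (-1.48, SE 0.16), and H2-Q6 (-1.44, SE 0.18). Nlrc5 was at 327, 306 and 292 CPM in wild type cGAMP libraries and at 88.0 to 122 CPM elsewhere. The H2-Q genes are close copies, so the split between them is uncertain. In the class II list, 14 of 16 tested members were above 0 and 0 below (1 with library totals in place of TMM), with a median of 1.21. March1, whose ubiquitin ligase removes class II molecules from the surface, was at 13.1, 22.2 and 18.5 CPM in wild type cGAMP libraries and 61.6 to 113 CPM elsewhere (2.28, SE 0.32). H2-Oa, a chain of the peptide loading modulator H2-O, was at 13.5, 15.5 and 14.5 CPM against 38.3 to 55.6 CPM (1.73, SE 0.19), and H2-DMa, a chain of the loading catalyst, at 38.7, 49.6 and 42.1 CPM against 114 to 158 CPM (1.64, SE 0.18). The 2 members that did not pass were the factor Rfx5 (-0.14, SE 0.15) and the lysosomal reductase Ifi30 (-0.39, SE 0.18, adjusted p = 0.108). Ifi30 passed below 0 without the second wild type cGAMP library (adjusted p = 0.00861).

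Genes of the B cell receptor and of B cell identity had 21 of 32 members above 0 and 0 below, with a median of 0.61. There, 1 member passed below 0 with median-of-ratios scaling, library totals, no filter, DESeq2 or limma-voom, and without wild type control 2, or wild type cGAMP 1, or Tmem173-/- control 1. Cr2, the complement receptor CD21, was at 16.9, 18.3 and 22.2 CPM in wild type cGAMP libraries and 87.4 to 119 CPM elsewhere (2.31, SE 0.18, adjusted p = 1.93e-07). Fcer2a, the low affinity IgE receptor CD23, was at 35.4, 50.2 and 42.2 CPM against 141 to 232 CPM (2.04, SE 0.32), and Vpreb3 had a value of 2.01 (SE 0.28). Of the 6 B cell markers, Cd79b (1.35, SE 0.18), Cd79a (1.05, SE 0.16) and Ms4a1 for CD20 (0.87, SE 0.18) were above 0, and 3 did not pass. Cd79a had 1245, 1487 and 1517 CPM in wild type controls, 623, 726 and 676 CPM in wild type cGAMP libraries and 1240 to 1535 CPM in Tmem173-/- libraries. Among those that did not pass were Pax5 (-0.32, SE 0.16) and Cd22 (0.46, SE 0.22), and Cd22 passed with no filter on low counts (adjusted p = 0.0120). In bulk libraries a smaller share of a cell type and less RNA of a gene per cell cannot be told apart.

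Receptors for migration had 12 of 21 tested members above 0 and 2 below, with a median of 0.79. Besides Ccr1, Itgb7, an integrin chain of gut homing, was at 10.05, 9.43 and 10.3 CPM in wild type cGAMP libraries and 34.9 to 59.0 CPM elsewhere (2.14, SE 0.22), and Ccr6 at 182, 158 and 197 CPM against 487 to 585 CPM (1.45, SE 0.14). The 2 members below 0 were Ccr7, the receptor that guides cells to lymph node T cell zones (-0.47, SE 0.14, adjusted p = 0.0193), and the integrin chain Itgb1 (-0.52, SE 0.18, adjusted p = 0.041). Ccr7 was at 809, 789 and 838 CPM in wild type cGAMP libraries and 476 to 606 CPM in the other 9, without overlap, yet it lost its call without wild type cGAMP 3 (adjusted p = 0.0513) or Tmem173-/- cGAMP 3 (adjusted p = 0.0511). Itgb1 kept it only without wild type control 1, or wild type cGAMP 2, or Tmem173-/- control 3 or Tmem173-/- cGAMP 1, and the other 8 fits without 1 library gave adjusted p-values from 0.0517 to 0.107.

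Among cell cycle genes, 18 of 32 members were below 0 and 2 above, with a median of -0.82. Ccnd2, the D-type cyclin that starts the cycle in B cells, was at 924, 799 and 795 CPM in wild type cGAMP libraries and 113 to 181 CPM elsewhere (-2.45, SE 0.20, adjusted p = 7.28e-07). The mitotic genes were at low levels, with Cdk1 at 9.46, 7.27 and 8.94 CPM against 1.24 to 3.57 CPM (-1.75, SE 0.44) and Bub1 at 5.02, 4.92 and 5.91 CPM against 0.813 to 2.42 CPM (-2.09, SE 0.50). The 2 members above 0 were the cyclin-dependent kinase inhibitors Cdkn2c (1.12, SE 0.21) and Cdkn1b (0.84, SE 0.16). Cdkn1b was at 68.7, 83.5 and 67.5 CPM in wild type cGAMP libraries and 111 to 159 CPM in the other 9.

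Cell death and p53 target genes went both ways, with 7 of 29 tested members below 0 and 11 above. The BH3-only genes themselves were divided. Pmaip1, which encodes NOXA, was at 171, 201 and 192 CPM in wild type cGAMP libraries and 23.002 to 27.9 CPM elsewhere (-2.86, SE 0.13, adjusted p = 2.13e-09). Bbc3, which encodes PUMA, was at 110, 114 and 113 CPM against 18.7 to 25.1 CPM (-2.38, SE 0.16), while Bmf lay above 0. Mlkl, the executor of necroptosis, had a value of -3.22 (SE 0.42). The growth arrest gene Gadd45a (2.12, SE 0.24) and the sestrin gene Sesn1 (1.49, SE 0.17) lay above 0, opposite in sign to Gadd45b.

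The stress, plasma cell and glycolysis lists had shares of called members not far from those of all tested genes. Below 0 lay 20.8%, 21.4% and 17.6% of their tested members, against 14.1%. Above 0 lay 16.7%, 28.6% and 23.5%, against 17.5%. With so few members, these counts are not read as a pattern of the lists. In the stress and chaperone list, 5 of 24 members were below 0 and 4 above. Atf3, a stress-induced factor, was at 43.6, 39.8 and 43.4 CPM in wild type cGAMP libraries and 0.912 to 2.37 CPM elsewhere (-3.99, SE 0.28), followed by Ppp1r15a (-1.17, SE 0.12) and Atf4 (-0.80, SE 0.14). Herpud1 (0.60, SE 0.11), Sdf2l1 (0.71, SE 0.21) and Atf6 (0.42, SE 0.12) were above 0, and Atf6 lost its call without Tmem173-/- control 2 (adjusted p = 0.0580). The members below 0 dropped from 5 to 3 without wild type control 2, wild type cGAMP 1 or 3, or Tmem173-/- cGAMP 2 or 3. Of 14 tested plasma cell genes, 3 were below 0, namely the amino acid transporter genes Slc3a2 (-1.24, SE 0.16) and Slc7a5 (-1.05, SE 0.20) and Edem1 (-0.38, SE 0.12), and 4 above. Edem1 lost its call without wild type control 2, or wild type cGAMP 1 or 3, or Tmem173-/- control 3 or Tmem173-/- cGAMP 2 or 3 (adjusted p from 0.0519 to 0.0715). Sdc1, the plasma cell antigen syndecan 1, was at 17.1, 20.9 and 20.01 CPM in wild type cGAMP libraries and 59.6 to 79.8 CPM elsewhere (1.88, SE 0.16), and the repressor Bcl6 (1.23, SE 0.14) and Mzb1 (0.98, SE 0.19) lay on the same side.

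Of 17 glycolysis genes, 3 were below 0 and 4 above, and 4 and 3 with library totals in place of TMM. Hexokinase gene Hk2 was at 89.8, 67.0 and 78.9 CPM in wild type cGAMP libraries and 22.9 to 39.5 CPM elsewhere (-1.21, SE 0.25), and Pfkfb3 had a value of -0.73 (SE 0.16). Pfkp (-0.56, SE 0.20, adjusted p = 0.0408) lost its call without wild type control 2 or 3, or wild type cGAMP 1 or 3, or Tmem173-/- control 1 or Tmem173-/- cGAMP 2 or 3, with adjusted p-values from 0.0622 to 0.111. Above 0 stood the glucose transporter gene Slc2a3 (1.25, SE 0.17), Pdk1 (0.63, SE 0.14) and Eno1 (0.59, SE 0.17). Eno1 had adjusted p-values of 0.0514 without Tmem173-/- control 2 and 0.0509 without Tmem173-/- cGAMP 2. Without Tmem173-/- cGAMP 2, 2 members passed above 0 in place of 4.

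Called members of the lists of cytosolic ribosomal proteins and of mitochondrially encoded transcripts lay above 0. Of 32 cytosolic ribosomal protein genes, 21 were above 0 and none below, with a median of 0.61. But in only 6 of the 32 did wild type cGAMP libraries keep clear of the other 9, against 43.7% of all tested genes. Rps14 had 2307, 2955 and 3184 CPM in wild type controls, 1390, 2108 and 1618 CPM with cGAMP, 2978, 2086 and 1478 CPM in Tmem173-/- controls and 2633, 2876 and 3102 CPM in Tmem173-/- cGAMP libraries (1.12, SE 0.31, adjusted p = 0.0123). The second and the third Tmem173-/- controls lay within the range of the wild type cGAMP group. In Rpl5 (0.98, SE 0.23) and Rps24 (0.96, SE 0.25) too, Tmem173-/- control 3 was the lowest library of its genotype. The number of ribosomal protein genes above 0 dropped to 12 without the third wild type control, to 9 without the first wild type cGAMP library, to 12 without the third, to 12 without the third Tmem173-/- control and to 11 without the second Tmem173-/- cGAMP library. Of 13 mitochondrially encoded transcripts, 9 were above 0 and none below, with a median of 0.62. The cytochrome b transcript mt-Cytb was at 1636, 1509 and 1648 CPM in wild type cGAMP libraries and 2323 to 3300 CPM in the other 9 (0.72, SE 0.17), mt-Nd5 had a value of 0.71 (SE 0.16) and mt-Atp6 of 1.04 (SE 0.22). The members that did not pass were mt-Nd1 (0.47, SE 0.18), mt-Nd4l (0.54, SE 0.34), mt-Atp8 (0.86, SE 0.59) and mt-Nd3, which ranged from 5.92 to 12.0 CPM over all libraries. The call of mt-Nd1 was gained without the second wild type control (adjusted p = 0.0309) or the third Tmem173-/- cGAMP library (adjusted p = 0.0191). Mitochondrial reads made up 1.19% to 2.26% of a library's counts.

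**Figure D4:**
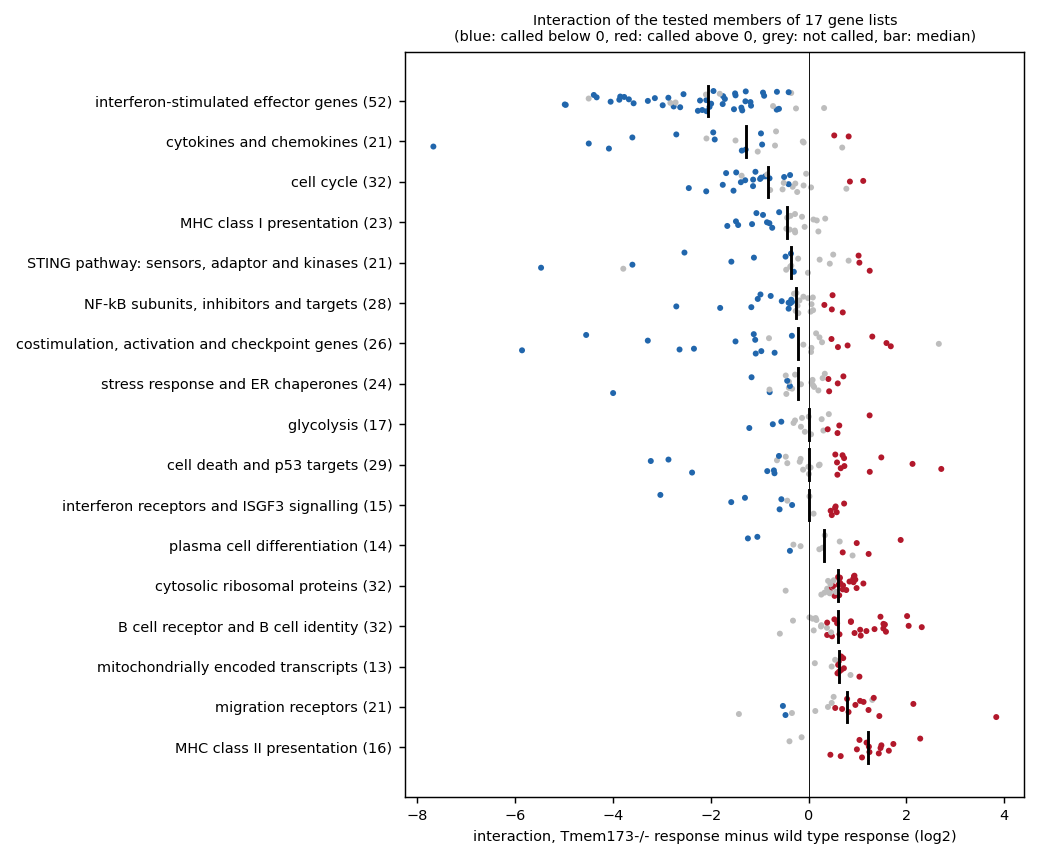
Interaction of the tested members of 17 gene lists, with 1 point per gene, blue where called below 0, red where called above 0 and grey where not called, and the list's median as a bar; the number of tested members stands after each name. The 3 tested interferon ligands, of which 0 were called, are left out. Of the lists drawn, interferon-stimulated effector genes have the lowest median (-2.06) and class II presentation the highest (1.21).

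Markers of other cell types were read for the same term. Of 6 tested T cell markers, 2 NK cell, 2 neutrophil, 3 erythroid and 5 platelet markers, 0 passed in edgeR's test, and 1 platelet marker had an unadjusted p under 0.05. DESeq2 and limma-voom called 0 of these as well. Without the first wild type cGAMP library, which had the highest summed level of T and of NK cell markers, 1 T cell and 1 NK cell marker passed above 0. The NK cell marker was Prf1, the gene of perforin, with a value of 1.13 in all libraries and 3.41 without that library (adjusted p = 0.00635), at 0.0344 and 0.107 CPM in the other 2 wild type cGAMP libraries and 0.57 to 1.28 CPM elsewhere apart from the 0.946 CPM of the first. The neutrophil markers Elane and Ly6g and the platelet marker Gp1bb had 0 counts in all 12 libraries. The platelet marker Gp9 (2.67, SE 1.14) passed without wild type control 1 (adjusted p = 0.0498) or wild type cGAMP 2 (0.0449). Without both first wild type libraries, 3744 genes were called in all.

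Of 7 tested monocyte and macrophage markers, 1 was below 0 and 2 above. Ly6c2 was at 38.4, 38.9 and 24.7 CPM in wild type cGAMP libraries and 1.15 to 6.85 CPM elsewhere (-3.26, SE 0.63), while Adgre1 was above 0. Ms4a7 had 0 counts in the wild type cGAMP group and 0.106 to 0.408 CPM elsewhere (adjusted p = 0.0153, and 0.0606 without both first wild type libraries). Its fitted value ranged from 0.126 to 5.67 under the alternatives tried. Csf1r (0.90, SE 0.66) and Lyz2 (-1.35, SE 1.19) did not pass, nor did Cd14 and Cd68, which reached at most 0.792 and 5.98 CPM. The summed level of 10 monocyte and macrophage markers ran from 36.1 to 60.0 CPM in wild type cGAMP and from 48.2 to 63.3 CPM in Tmem173-/- cGAMP libraries. Of 6 tested dendritic cell markers, 3 were below 0. Bst2, the virus-tethering factor tetherin, was at 433, 462 and 409 CPM in wild type cGAMP libraries and 41.0 to 141 CPM elsewhere (-2.09, SE 0.41), and Zbtb46 (-1.54, SE 0.23) and Flt3 (-0.90, SE 0.21) were smaller. Xcr1 (1.98, SE 0.74, adjusted p = 0.0519), Itgax and Batf3 did not pass, at no more than 0.815, 2.75 and 0.931 CPM. Xcr1 passed without the first wild type cGAMP library (adjusted p = 0.0459). The summed level of the 9 dendritic markers was 459 to 510 CPM in wild type cGAMP libraries, nearly all of it Bst2.

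A few called genes did not have the wild type cGAMP group as the one that stood apart. Among called genes with a mean of at least 5 CPM in a group, leaving out predicted-gene and clone names, the 5 in which the Tmem173-/- response most exceeded the wild type response in size were Rpl22l1, Ndufa11, Churc1, Ccdc90b and Vps29. Churc1, a zinc finger gene, had 13.7, 18.7 and 16.4 CPM in wild type controls, 10.2, 13.9 and 7.87 CPM in wild type cGAMP libraries, 15.0, 12.4 and 11.2 CPM in Tmem173-/- controls and 18.02, 21.3 and 25.1 CPM in Tmem173-/- cGAMP libraries. Its 2 responses had opposite directions, -0.61 in wild type and 0.74 in Tmem173-/- cells, and the Tmem173-/- response alone did not pass. The interaction of 1.34 (SE 0.27, adjusted p = 0.00144) kept its call under all 22 alternatives, with values from 1.15 to 1.58. The other 4 had smaller values, 0.70 for the ribosomal protein-like gene Rpl22l1, 0.41 for Ndufa11 of respiratory complex I, 0.56 for Ccdc90b and 0.45 for the retromer gene Vps29, and their calls depended on single libraries. Rpl22l1 lost its call without wild type control 3, wild type cGAMP 1 or 3 or Tmem173-/- cGAMP 3 (adjusted p from 0.05002 to 0.0620). Ndufa11 kept it only without wild type control 1 or Tmem173-/- control 1 (otherwise 0.0549 to 0.121). Ccdc90b and Vps29 lost it without wild type control 3, or wild type cGAMP 1, or Tmem173-/- control 2 or 3 or any Tmem173-/- cGAMP library, Ccdc90b also without wild type cGAMP 2 (0.0519 to 0.116), and Vps29 also without wild type cGAMP 3 (0.0657 to 0.104).

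Under the same limits on level and name, the 5 genes in which the genotype difference of the controls most exceeded that of the cGAMP groups were Dhrs4, Ndufa11, Immp2l, Ndufb3 and Zfp97. Immp2l, for a subunit of a mitochondrial inner membrane peptidase, had 10.4, 12.1 and 15.8 CPM in wild type controls, 8.70, 9.12 and 6.77 CPM with cGAMP, 9.81, 8.77 and 8.25 CPM in Tmem173-/- controls and 8.97, 11.2 and 10.2 CPM with cGAMP (0.82, SE 0.23, adjusted p = 0.0146), and kept its call under all 22 alternatives. Dhrs4 (0.41, SE 0.14) and Ndufb3 of complex I (0.58, SE 0.21) lost theirs without wild type control 3, or wild type cGAMP 1 or 3, or Tmem173-/- control 2 or 3 or Tmem173-/- cGAMP 1 or 2, with adjusted p-values from 0.0717 to 0.121 for Ndufb3, and Dhrs4 also without Tmem173-/- cGAMP 3 (0.0566 to 0.0896). Zfp97 (0.63, SE 0.20) lost its call without wild type cGAMP 1, Tmem173-/- control 1 or Tmem173-/- cGAMP 3 (0.0512 to 0.0569). In the controls, the wild type libraries of Dhrs4 (33.1 to 38.9 CPM) lay above the Tmem173-/- ones (25.5 to 31.4 CPM).

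The smallest difference that could be called depended on the level of the gene. Among 2802 genes with a mean log2 CPM under 0 the median SE was 0.81 and 221 (7.89%) were called, and among 634 genes with a mean of at least 8 it was 0.15 and 314 (49.5%) were called. The smallest interaction called was 1.46 in the first set and 0.31 in the second. Leaving out 1 library at a time gave 3577 to 4477 calls, and 3210 of the 4569 genes were called in each of the 12 fits.

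**Figure D5:**
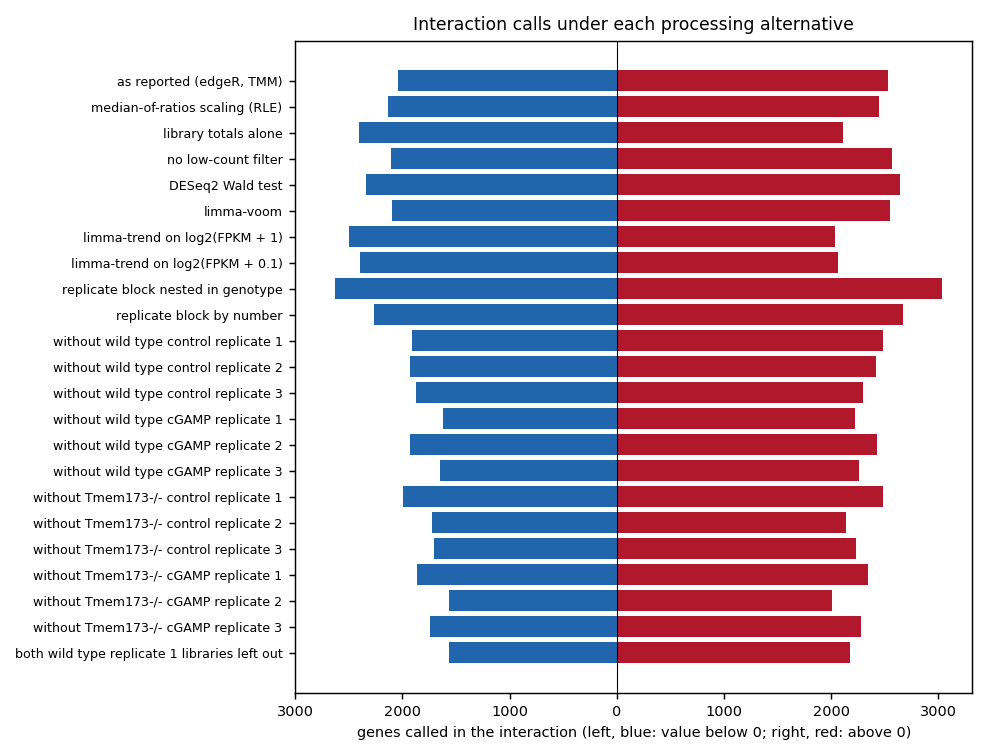
Number of genes called in the interaction under the reported fit and each of 22 alternatives, below 0 to the left in blue and above 0 to the right in red. The total ranges from 3577 without the second Tmem173-/- cGAMP library to 5660 with a replicate block nested in genotype, against 4569 as reported, and the 3 alternatives scaled to library totals have more genes below 0 than above.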

How the data were processed

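The authors deposited whole-number counts per gene for 12 libraries and, as a second unit, FPKM values. Per the submitters' processing notes, fastp, STAR and featureCounts were used with GRCm38 (mm10). Versions, settings, annotation release and strandedness are not given in the sources used here, so reads of overlapping and antisense genes may be mixed. The deposited FPKM values follow each count divided by its column total, with 1 factor per gene, and were used only in alternatives.

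Counts were tested in R 4.3.3 with edgeR 4.0.16. Of 54532 genes, 26792 had a count and 14473 passed filterByExpr by group. Libraries were scaled by TMM, and 1 robust quasi-likelihood fit over the 4 groups gave the interaction and the 4 simple contrasts, two-sided, with Benjamini-Hochberg adjustment over all tested genes and a threshold of 0.05. SE is the log2 value divided by the square root of F, and group values are per library (n = 3). Intervals come from limma 3.58.1 (voom, 95%). Alternatives were DESeq2 1.42.0, other scalings, no filter, FPKM with pseudocounts of 1 and 0.1 on the log2 scale, replicate blocks and libraries left out. The scripts were tested on simulated data.

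The gene lists and the comparison were chosen with earlier results of these data known. Named genes are Tmem173, the 12 lowest and 12 highest values among called genes with at least 5 CPM in a group and no predicted-gene or clone name that stayed called in all fits without 1 library, the 3 lowest and 3 highest called members of each list with the rest where 5 or fewer did not pass, 5 genes each with the largest excess of the Tmem173-/- response or of the control difference, and the 5 uncalled genes with the largest wild type response, the last 3 sets under the same limits on level and name. Genes named after their values were seen are marked, and some results are not reported here. Replicates of a group differed beyond sampling noise. Depth was 26490593 to 31417833 counts.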

Additional observations from a re-analysis of the deposited data

Results flagged for a closer look

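The response to cGAMP differed between the genotypes, by the test of the interaction itself, for 4569 genes, of which 2037 were lower and 2532 higher in Tmem173-/- cells and 1554 differed at least 2-fold. The same test marked some genes in which wild type cGAMP was not the group that stood apart. Churc1 (1.34), Rpl22l1 (0.70), Ccdc90b (0.56), Vps29 (0.45) and Ndufa11 (0.41) were chosen for a larger response in Tmem173-/- cells. Immp2l (0.82), Zfp97 (0.63), Ndufb3 (0.58) and Dhrs4 (0.41) were chosen for a larger genotype difference in controls. Of these, only Churc1 and Immp2l kept their calls in every fit without 1 library.

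Some genes too rare to be tested had counts in the wild type cGAMP group above those of the other groups. The interferon gene Ifnb1 had 24 counts over its 3 libraries (8, 7 and 9), 0 in wild type control and Tmem173-/- cGAMP libraries and 2 in Tmem173-/- controls, and Ifna2 had 47 (3, 34 and 10) and 0 in all other libraries. The chemokine genes Cxcl9 and Cxcl11 had 20 (7, 6 and 7) and 16 counts (3, 13 and 0). The cytokine gene Il27 had 21 (13, 7 and 1), and these genes had at most 3 in any other group. The NK cell genes Gzmb (31 counts), Klre1 (17) and Klra8 (11) were concentrated in the first wild type cGAMP library, with 28, 14 and 8 of these counts. All genes of this paragraph were chosen for counts in 1 group and at most 3 in each other group, so that difference was fixed in advance. These counts carry no test.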

How the results depend on the processing

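The count of called genes was 4569 and ranged from 4459 to 5660 under the 9 other scalings, filters, tests and blocks: 4574 with median-of-ratios scaling, 4510 with library totals, 4674 with no filter, 4986 with DESeq2, 4645 with limma-voom, 4530 and 4459 with log2(FPKM + 1) and log2(FPKM + 0.1). At least 2-fold interactions numbered 1554, and 946 with log2(FPKM + 1), which compresses low genes by construction. Leaving out 1 library gave 3577 to 4477 calls, 1568 to 1992 lower, 2009 to 2487 higher and 1291 to 1642 of at least 2-fold. Genes below 0 were 44.6% of calls and 53.2%, 55.1% and 53.7% with library totals and the FPKM scales. The median interaction of all genes moved from 0.02 to between -0.06 and 0.03.

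Libraries of a genotype share replicate numbers, but the labels do not say that a number marks a mouse. Deviations from the group means correlated at 0.30, 0.22 and 0.083 for same-numbered wild type and 0.29, 0.096 and 0.17 for same-numbered Tmem173-/- libraries, so not every pair passed 0.1. Every library correlated best with its own number, a hint from the data. A replicate block by number gave 4932 calls, and a replicate block nested in genotype 5660, of which 4532 were among the 4569. Of the genes named, Cd22 passed with both blocks (adjusted p = 0.0482 by number and 0.00286 nested), as did Il6 (0.0466 and 0.0275). Xcr1 passed with the block by number (0.0498), with which Ccdc90b (0.0571), Ndufa11 (0.0590) and Ndufb3 (0.0643) lost their calls. With the nested block Pax5 (0.0493), Ifi30 (0.0226), mt-Nd1 (0.0224), Lyz2 (0.0372) and Gp9 (0.0402) passed and Rpl22l1 (0.0599) did not. These lists gained members below 0 with the nested block: B cell identity (2 in place of 0), class II (1 in place of 0) and glycolysis (5 in place of 3).

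Precision is set by counting at low levels and by the spread of 3 libraries. A missing call does not show equal responses.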

Other observations

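Chromosome X, chosen after its values were seen and with no test of the difference, had a lower share of lower calls than any autosome. Of 134 called genes there, 29 (21.6%) were lower and 105 higher, while the share of lower calls ran from 37.1% to 52.8% over the 19 autosomes. The mitochondrial chromosome had 10 called genes, 0 lower and 10 higher. Xist, the RNA that silences 1 X chromosome in female cells, had 495, 627 and 374 CPM in the wild type controls, 782, 933 and 847 CPM in wild type cGAMP libraries, 478, 615 and 624 CPM in Tmem173-/- controls and 570, 631 and 697 CPM in Tmem173-/- cGAMP libraries, with an interaction of -0.63 (SE 0.22, edgeR adjusted p = 0.0422). It kept its call only without wild type control 2, or wild type cGAMP 1, or Tmem173-/- control 1 or Tmem173-/- cGAMP 3, and the other 8 fits without 1 library gave adjusted p-values from 0.0699 to 0.0975.

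Calls by gene type, with no test of the differences, are read against the 14.1% of all tested genes that were lower and the 17.5% that were higher. Of 78 tested snoRNA genes, 16 were lower and 1 higher, of 626 processed pseudogenes 15 and 69, and of 198 immunoglobulin variable genes 0 and 23. The share called was 21.8% for snoRNA genes, 13.4% for processed pseudogenes and 11.6% for immunoglobulin variable genes, against 31.6% over all genes. Reads of snoRNA genes overlap those of their host genes, and pseudogenes share reads with their parent genes, so these counts are uncertain. Rpl12 was at 91.0 CPM in wild type control 2 and at 1345 to 2611 CPM in the other 11 libraries.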
